A study of Rattus norvegicus with 16 samples.

Results

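The 39 genes described here were lower in the dentate gyrus (DG) granular layer of the rat hippocampus than in each of the CA1, CA2 and CA3 pyramidal layers, and had similar levels in those 3 layers. They were chosen on measured values, out of 32883 genes listed. Counts of each library were expressed as CPM (a count's share of the library total, scaled to a common total), with 2 genes that together held 16.1 to 31.1% of a library's counts left out of the total, and averaged over the 4 libraries of a subfield. A gene was kept where the CA1, CA2 and CA3 means were each at least 10 CPM and each at least 4 times the DG mean, and where the highest CA mean was below 2 times the lowest. Since these limits use all 6 contrasts between subfields, the levels below are a description of the 39 genes and support nothing about them.

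The study compared the transcriptomes of the hippocampal principal cell layers of 3-month-old male Wistar rats, with no treatment named in the labels. The 4 groups were the CA1, CA2 and CA3 pyramidal layers and the DG granular layer, with 4 libraries each, and they differed only in the layer taken. The layers were taken to share their animals, as the methods name 4 rats. The labels give libraries of different layers the same numbers, which were read as animal numbers and are called replicates 1 to 4 here. Each layer was cut by laser from Cresyl violet stained coronal sections and its total RNA was sequenced. A laser-cut layer is not a sorted cell type: glia, interneurons and vessels within the layer were collected with its neurons.

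As background, pyramidal cells of the CA fields and granule cells of the dentate gyrus are both glutamatergic principal neurons. Granule cells have small, densely packed somata, send mossy fibres to CA3 and continue to be born in the adult. Pyramidal cells have larger somata with apical and basal dendrites, and pass the signal on from CA3 to CA1 and out of the hippocampus. Prox1, a homeobox transcription factor, maintains granule cell identity.

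The deposited table names genes by Ensembl identifier and does not pair identifiers with symbols. The pairs of identifier and symbol used here number 288 and include 0 of the 39 genes. Functions, families, proteins and promoters of the 39 genes are therefore not analysed here. The genes are therefore called gene 1 to gene 39, in falling order of the ratio of the lowest CA mean to the DG mean. Gene 1 is ENSRNOG00000026055 and gene 2 is ENSRNOG00000011160. CPM is not divided by gene length, so levels are compared between layers and not between genes.

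Total counts ran from 3216512 to 11933279 per library, and 3 counts, taken as the detection floor, were worth 0.315 to 1.21 CPM. Counts of CA2 replicates 2 and 4 differed by no more than sampling noise (chi-square per degree of freedom 0.999 over 11864 genes), and so nearly did those of DG replicates 2 and 4 (1.04 over 12602 genes), whereas the other 22 pairs within a subfield gave 2.96 to 47.2. Each such pair was counted as 1 sample in every mean ± SD and test, except in a fit stated to use all 16 libraries. This leaves n = 4 for CA1 and CA3 and n = 3 for CA2 and DG. The mean of 4 libraries is used only for the choice of genes and for the ratios and orders derived from it. Prox1 averaged 485 CPM in DG and 4.75 to 11.3 CPM in the CA layers. Its symbol comes from the study's own marker table, as do those of the other markers that could be matched; that table was chosen on these samples, so these markers are no independent check of the layer labels. No identifier could be matched for listed markers of mossy cells, interneurons, astrocytes, oligodendrocytes, oligodendrocyte precursors, microglia, vessels or choroid plexus, so the part of these cells in any difference was not tested. In bulk samples of this kind, fewer cells of a type and less RNA per cell cannot be told apart.

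Genes that fell this far from all 3 pyramidal layers to the granular layer were few. Of the 8691 genes with at least 10 CPM in each CA layer, 74 (0.851%) had every CA mean at least 4 times the DG mean. The limit between CA means then kept 39 (0.449%) and left out 35, of which 24 were highest in CA1, 6 in CA2 and 5 in CA3. In the opposite direction, 151 genes with at least 10 CPM in DG and no minimum in the CA layers had a DG mean at least 4 times each CA mean. Of those, 74 had CA means within 2 times of each other. Among the 8691 genes with at least 10 CPM in each CA layer, 20 (0.230%) had such CA means and a DG mean at least 4 times the highest. These counts follow from the limits and carry no test.

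The ratio of the lowest CA mean to the DG mean was steep for a few genes and close to the limit for most. Genes 1 and 2 stood apart with ratios of 78.8 and 68.9. Genes 3 and 4 followed at 18.7 and 18.2, and gene 5 was at 9.20. The other 34 genes lay between 4.08 and 8, with a median over all 39 of 5.21, and 15 genes were below 5. Taken layer by layer, the median ratio to DG was 6.36 for CA1, 6.50 for CA2 and 5.87 for CA3.

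**Figure D1:**
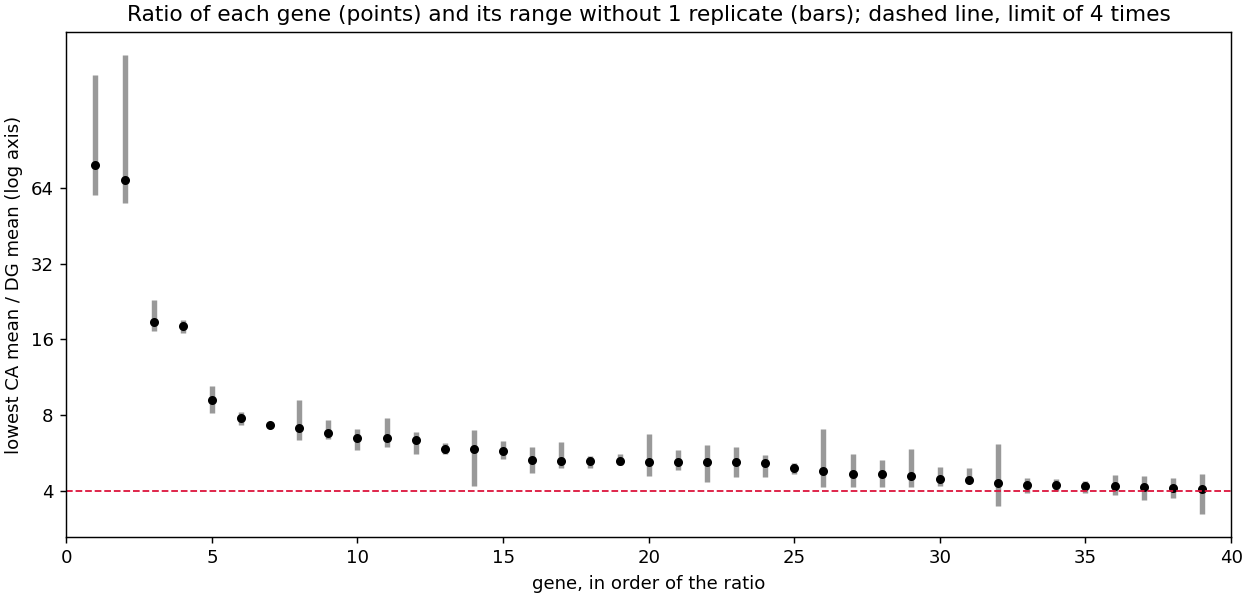
Ratio of the lowest CA mean to the DG mean (vertical log axis) for the 39 genes in falling order (horizontal axis). Points give the value over all libraries, grey bars the lowest and highest value when 1 replicate is left out, and the dashed line the limit of 4 times; genes 1 and 2 stand at 78.8 and 68.9 with bars that reach 180 and 216, while most genes lie below 6.

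Gene 1 was far lower in DG than in the pyramidal layers, and within those its level differed between replicates. In CA1 it was at 649, 768, 298 and 279 CPM in replicates 1 to 4. In CA2 it was at 642, 265, 330.3 and 269 CPM, and in CA3 at 628, 718, 395 and 329.8 CPM. In DG it was at 1.55, 8.53, 2.64 and 6.40 CPM, so that the lowest CA library was 31.1 times the highest DG library. Replicates 1 and 2 were the high ones in both CA1 and CA3, whereas in CA2 replicate 1 alone was high and replicates 2 and 4, the repeated pair, were both low. The mean was 498 ± 247 CPM in CA1 (SD, n = 4), 413 ± 201 in CA2 (n = 3), 518 ± 185 in CA3 (n = 4) and 3.89 ± 3.15 in DG (n = 3). The highest of the 12 CA libraries was 2.90 times the lowest, against a median of 2.13 times over the 39 genes.

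Gene 2 had the steadiest pyramidal level of the 39 genes. It was at 1877, 1980.0, 2056 and 1993 CPM in CA1. In CA2 it was at 2385, 2216, 2648 and 2260.4 CPM, and in CA3 at 2537, 2267, 2432 and 2247 CPM. The highest of these 12 libraries was 1.41 times the lowest, the narrowest range among the 39 genes. In DG the level split by library, with 51.3 and 45.1 CPM in the repeated pair, replicates 2 and 4, and 10.1 and 8.25 CPM in replicates 1 and 3. Its mean was 1976 ± 74.4 CPM in CA1 (SD, n = 4), 2424 ± 208 in CA2 (n = 3), 2371 ± 138 in CA3 (n = 4) and 22.2 ± 22.6 in DG (n = 3).

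The DG levels of genes 1 and 2 therefore rested on 1 of 3 DG samples. Without the repeated DG pair, the ratio of the lowest CA mean to the DG mean rose to 180 for gene 1 and to 216 for gene 2. The repeated pair was 3.57 times the mean of DG replicates 1 and 3 for gene 1 and 5.27 times for gene 2, but a median of 1.15 times over the 39 genes. These were the only 2 genes of the 39 in which the pair was at least 2 times both other DG replicates. The genes that the study lists as CA1 markers, chosen on these samples, summed to 166 and 163 CPM in the pair and to 156 and 177 CPM in DG replicates 1 and 3. Its CA3 markers summed to 24.6 and 23.9 CPM in the pair and to 16.5 and 27.7 CPM in replicates 1 and 3. Its CA2 markers summed to 9.79 and 9.01 CPM in the pair and to 8.76 and 9.57 CPM in replicates 1 and 3. For the CA1 and CA3 lists both libraries of the pair lay between replicates 1 and 3, and for the CA2 list DG replicate 2 lay above both. The part of such RNA in the DG levels of genes 1 and 2 was not tested.

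Genes 3 and 4 were low in every DG library and fell from CA1 or CA2 to CA3. Gene 3 was at 159 to 168 CPM in the CA1 libraries, 142 to 149.9 in CA2, 89.5 to 109 in CA3 and 3.96 to 6.71 in DG, with no overlap between any 2 of the 4 layers. It was not called in CA1vsCA2 by the edgeR test given below (adjusted p 0.606). Its means were 164 ± 3.93 CPM in CA1 (SD, n = 4), 145 ± 3.05 in CA2 (n = 3), 98.4 ± 9.98 in CA3 (n = 4) and 4.93 ± 1.15 in DG (n = 3). Gene 4 was at 49.0 to 66.7 CPM in CA1, 61.1 to 70.1 in CA2 and 36.1 to 45.9 in CA3, so that CA1 and CA2 overlapped and CA3 lay below both. In DG it was at 1.66 to 3.08 CPM, from 51 counts over the 4 libraries. Gene 5 rested on 46 counts in DG, where it was at 1.29 to 2.81 CPM, against 24.7 to 35.3 in CA1, 17.1 to 25.5 in CA2 and 16.6 to 21.4 in CA3.

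**Figure D2:**
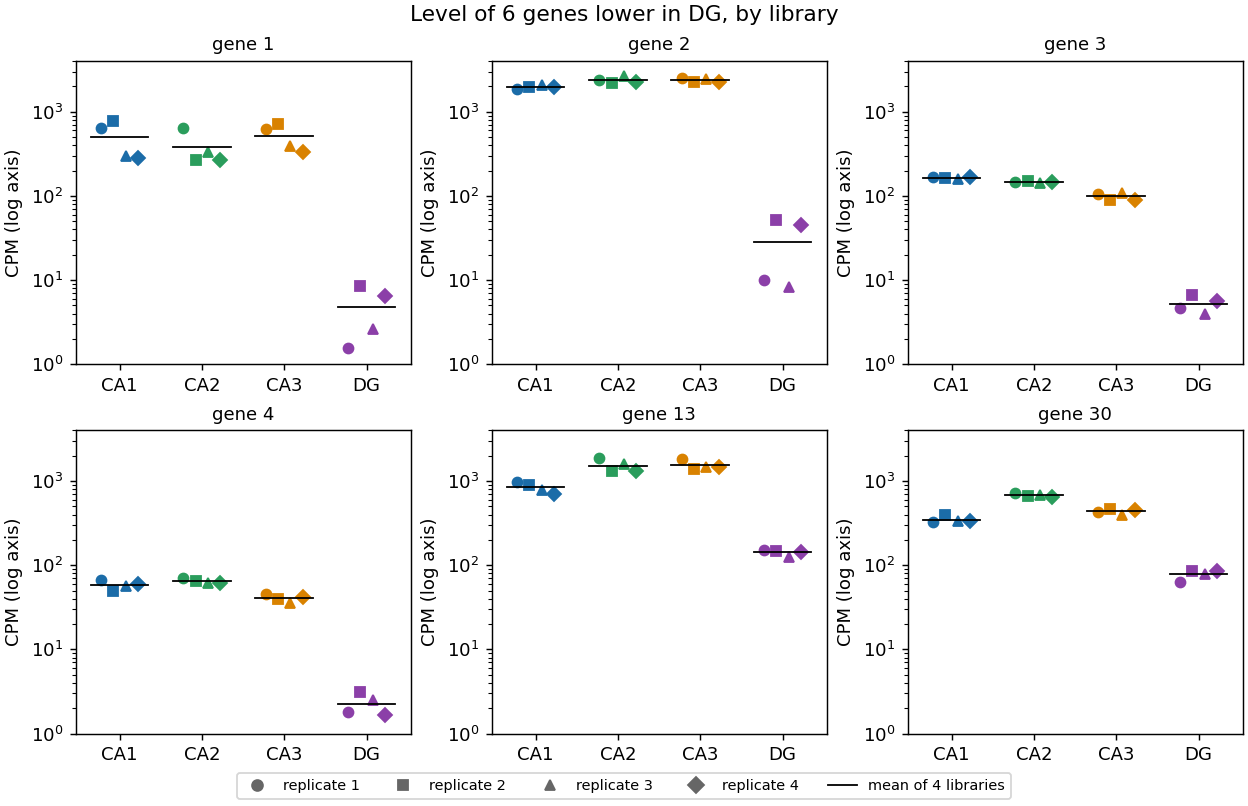
CPM of genes 1, 2, 3, 4, 13 and 30 (vertical log axis, the same in each panel) in the 4 libraries of each layer (horizontal axis). Symbols mark the replicate number and lines the mean of 4 libraries; gene 1 splits in the CA layers with replicates 1 and 2 high in CA1 and CA3, gene 2 splits in DG with replicates 2 and 4 high, and gene 13 is at 707 to 967 CPM in CA1 below CA2 and CA3.

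Genes 6 to 12 completed the 12 genes with a ratio of at least 6. Gene 6 was at 316 to 392 CPM in CA1, 379.9 to 484 in CA2, 254 to 453 in CA3 and 36.3 to 48.1 in DG. Gene 7 was at 62.6 to 69.7 CPM in CA2, 86.4 to 106 in CA3 and 8.51 to 9.37 in DG, and in CA1 at 69.7 to 73.2 in replicates 1 to 3 and 52.1 in replicate 4. Gene 8 was at 184 to 234 CPM in CA1, 242 to 257 in CA2, 121 to 141 in CA3 and 12.6 to 26.1 in DG. Of these 3 genes, gene 7 was highest in CA3, gene 8 lowest there, and gene 6 overlapped across the 3 CA layers.

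Gene 9 was at 120.5 to 128 CPM in CA1, 71.9 to 83.9 in CA2, 57.1 to 76.8 in CA3 and 8.09 to 13.8 in DG. Gene 10 was at 69.6 to 95.8 CPM in CA1, 74.5 to 106 in CA2, 65.7 to 104 in CA3 and 10.1 to 14.7 in DG. Gene 11 was at 178 to 208 CPM in CA1, 148 to 199 in CA2, 279 to 341 in CA3 and 18.5 to 33.0 in DG. Gene 9 was thus high in CA1 and gene 11 in CA3, each without overlap with the other CA layers. Gene 12 was at 18.2 to 25.0 CPM in CA1, 21.8 to 30.1 in CA2, 20.6 to 24.6 in CA3 and 2.61 to 3.87 in DG.

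The lower level in DG, which the choice of genes required of the means, was also seen library by library in each of the 39 genes. Every CA library was above every DG library in all 39, as it was in 6.56% of the 17174 genes with more than 10 counts in sum. The lowest CA library was at least 2 times the highest DG library in all 39 and at least 4 times in 16, with a median of 3.71 times. The choice of genes favours such gaps and their shares over all genes were not computed, so nothing is read from them. The narrowest gap, 2.02 times, was that of gene 32, at 10.9 CPM in CA1 replicate 2 and 5.41 CPM in DG replicate 1, whereas its other DG libraries were at 1.65 to 2.37 CPM. All 39 genes had counts in each DG library. The lowest DG value was 3 counts, in gene 14, and the counts summed over the 4 DG libraries ran from 44 to 3032 with a median of 180.

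**Figure D3:**
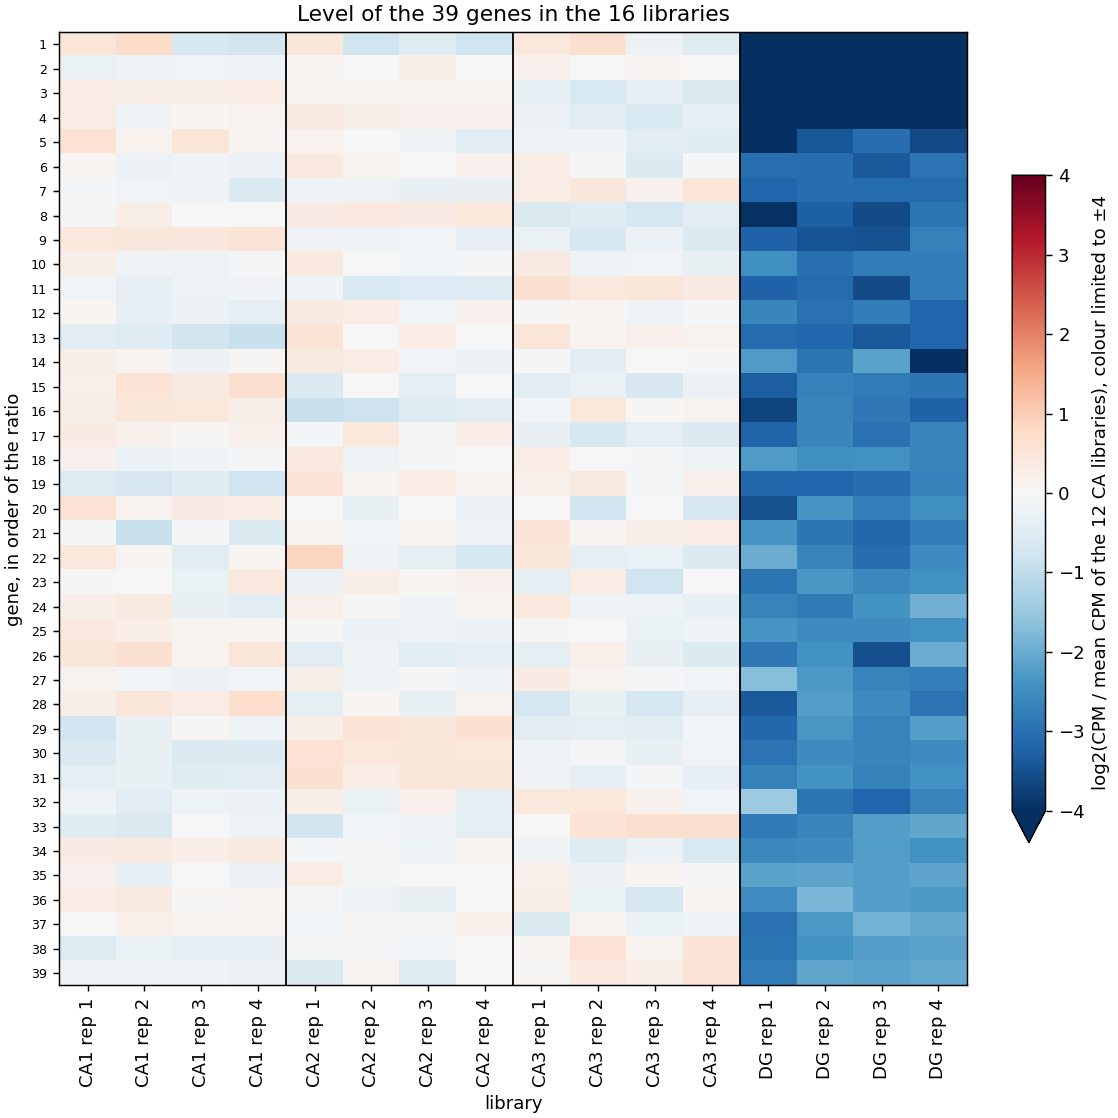
Level of each of the 39 genes (rows, in falling order of the ratio) in the 16 libraries (columns), as log2 of CPM over the gene's mean CPM in the 12 CA libraries, with the colour scale cut at ±4. All 4 DG columns are blue in every row, darkest for genes 1 to 4, and the CA columns stay near 0.

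The spread between samples was larger in DG than in the CA layers. The median coefficient of variation over the 39 genes was 20.7% in DG, against 11.9% in CA1, 13.1% in CA2 and 13.8% in CA3. Over the 8691 genes with at least 10 CPM in each CA layer it was 10.6% in DG and 11.1, 10.7 and 12.4% in CA1, CA2 and CA3. Counting alone would give a median of 14.9% at the mean count of a DG library and 4.77 to 5.46% at that of a CA library for the 39 genes. DG replicate 2 held the highest DG value of 15 genes, replicate 4 of 11, replicate 1 of 9 and replicate 3 of 4.

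Together the 39 genes summed to 6534 to 7347 CPM in CA1 libraries, 7823 to 9412 in CA2, 7519 to 8809 in CA3 and 687 to 821 in DG. Without gene 2, the sums were 4541 to 5437, 5607 to 7027, 5251 to 6271 and 679 to 776 CPM. Gene 2 was thus a smaller part of the sum in DG than in the CA layers. Within the CA layers, replicate 1 tended to be high: the median gene stood at 106% of its layer mean in CA1 replicate 1, 108% in CA2 replicate 1 and 109% in CA3 replicate 1, but at 83.6% in DG replicate 1. These medians were not taken over all genes, so they are not shown to be particular to the 39 genes. The share of counts held by the 2 genes left out of the totals was lowest in replicate 1 of each layer, at 17.6% in DG and 16.1, 20.5 and 18.7% in CA1, CA2 and CA3. The highest CA1 and the highest CA3 library carried the same replicate number in 19 of the 39 genes (48.7%), against 39.7% of the 8691 genes. That number was 1 in 12 of the 39 genes, against 19.5% of the 8691.

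Some genes kept an order of replicates across layers. Genes 15 and 28, singled out after their values were seen, were higher in replicates 2 and 4 than in replicates 1 and 3 of every CA layer. Gene 15 was at 78.5, 101, 87.8 and 107 CPM in CA1 replicates 1 to 4, at 46.7, 66.9, 53.3 and 68.9 in CA2, and at 50.8, 57.4, 44.2 and 58.3 in CA3. Gene 28 was at 83.8, 98.2, 87.3 and 114 CPM in CA1, at 54.3, 75.2, 57.7 and 78.0 in CA2, and at 44.3, 57.6, 43.4 and 56.5 in CA3. In DG the order differed, with gene 15 at 6.96, 10.5, 9.74 and 9.25 CPM and gene 28 at 6.96, 15.1, 12.1 and 9.25 CPM. The CA2 values of replicates 2 and 4 come from the repeated pair and count once.

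The edgeR quasi-likelihood test, fitted on all 17174 genes with Benjamini-Hochberg adjustment, called all 39 genes higher in the pyramidal layer in CA1vsDG, CA2vsDG and CA3vsDG. Of all genes tested, 15.1, 18.9 and 20.6% were called higher in CA1, CA2 and CA3 in these comparisons, which share the DG samples. The choice of the genes used these contrasts, so nothing is read from the counts. The log2 fold changes of the 39 genes ran from 2.16 to 6.81 in CA1vsDG, from 2.10 to 6.78 in CA2vsDG and from 2.21 to 6.94 in CA3vsDG, with medians of 2.76, 2.86 and 2.74, beside medians of -0.01, 0 and -0.01 over all genes tested. Gene 1 had log2 fold changes of 6.81 ± 0.53 (SE), 6.59 ± 0.54 and 6.94 ± 0.53, and gene 2 of 6.42 ± 0.41, 6.78 ± 0.42 and 6.77 ± 0.42. DESeq2 called 38 in each comparison and gave no adjusted p for gene 2. Of all 17174 genes fitted, DESeq2 called 2517, 3044 and 3330 higher in CA1, CA2 and CA3.

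Within the limit of 2 times, the 39 genes still differed among the pyramidal layers. The ratio of the highest to the lowest CA mean ran from 1.06 to 1.98 with a median of 1.56; it was below 1.1 in 4 genes, below 1.2 in 8 and below 1.5 in 18. CA1 held the highest CA mean of 14 genes, CA2 of 15 and CA3 of 10. CA1 held the lowest of 13 genes, CA2 of 9 and CA3 of 17. Means fell from CA1 through CA2 to CA3 in 10 genes and rose in that order in 5.

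**Figure D4:**
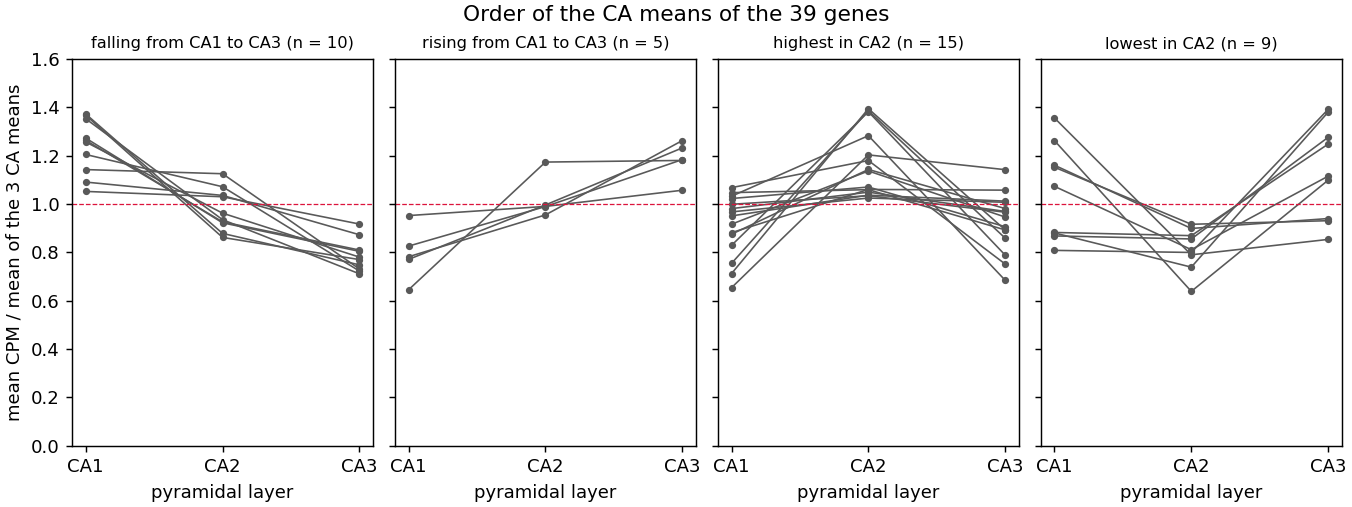
Mean CPM of each of the 39 genes in CA1, CA2 and CA3 (horizontal axis), divided by the mean of its 3 CA means (vertical axis, from 0), in 4 panels by the order of the means. Each line is a gene; 10 fall from CA1 to CA3, 5 rise, 15 are highest in CA2 and 9 are lowest in CA2.

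The edgeR test called 10 of the 39 genes in CA1vsCA2, 5 higher and 5 lower in CA1, where 14.3% of all genes tested were called in either direction. With the rat as a replicate block, the same 10 genes and others were called. With the repeated pairs under number 2 there were 18 in all, 8 higher in CA1 and 10 lower, against 19.2% of all genes. There were 17 with the pairs under number 4 (20.6%) and 19 with all 16 libraries (22.4%). The form with all 16 libraries takes the repeated libraries as separate samples. In CA1vsCA3 the fit without the block called 21, 11 higher and 10 lower in CA1, against 24.8% of all genes. Each of the 3 forms of the block called 12 higher and 11 lower. Of the 17174 genes tested, the block called 2609 higher and 2762 lower with the pairs under number 2. It called 2801 and 2977 with them under number 4, and 2765 and 2948 with all 16 libraries. In CA2vsCA3 the fit without the block called 12, 7 higher and 5 lower in CA2, against 7.65%. The block left 14, 14 and 15 genes called, against 11.8, 12.9 and 15.2% of all genes. The limit between CA means caps the differences these counts rest on, so nothing is read from them. Of the 39 genes, 24 were called in at least 1 of the 3 comparisons and 15 in none, or 12 in none with the block in each of its 3 forms, a result that does not show equal levels. Without the block, gene 30 alone was called in all 3, and with it 5 genes were. The shares of all genes called in at least 1, in none or in all 3 were not computed, so nothing is read from these counts either.

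The least even genes were genes 16, 30, 28, 11 and 8, with ratios of the highest to the lowest CA mean of 1.98, 1.96, 1.90, 1.87 and 1.87. Gene 16 was at 46.5 to 54.5 CPM in CA1, 21.7 to 29.6 in CA2, 37.3 to 53.4 in CA3 and 3.09 to 6.43 in DG, so that CA2 lay below both other CA layers. Gene 30 was at 325 to 401 CPM in CA1, 654 to 727 in CA2, 401 to 464 in CA3 and 62.9 to 86.2 in DG, with CA2 above every other library. Its log2 fold change was -1.05 ± 0.11 (SE) in CA1vsCA2, -0.41 ± 0.10 in CA1vsCA3 and 0.64 ± 0.11 in CA2vsCA3. Gene 31, singled out after its values were seen, had a like order, at 315 to 358 CPM in CA1, 547 to 682 in CA2, 351 to 419 in CA3 and 67.7 to 84.4 in DG.

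A few genes split CA1 from the other pyramidal layers. Gene 13, singled out after its values were seen, was at 967, 905, 791 and 707 CPM in CA1, at 1886, 1322, 1612 and 1307 in CA2, at 1822, 1399.9, 1487 and 1453 in CA3 and at 153, 148, 126 and 146 in DG. Its CA1 libraries were below every CA2 and CA3 library, and CA2 and CA3 overlapped. The means of gene 13 were 842 ± 116 CPM in CA1 (SD, n = 4), 1604 ± 286 in CA2 (n = 3) and 1541 ± 191 in CA3 (n = 4). Its log2 fold change was -0.96 ± 0.12 (SE) in CA1vsCA3 and 0.04 ± 0.13 in CA2vsCA3. Gene 13 had the most DG counts of the 39 genes, 3032 over the 4 libraries. Gene 19, likewise singled out later, was at 39.6 to 48.7 CPM in CA1, 73.5 to 98.5 in CA2, 67.0 to 89.0 in CA3 and 7.69 to 10.7 in DG, also with CA1 below both and CA2 and CA3 overlapping.

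The most even genes were genes 18, 24, 10, 35 and 27, with ratios of 1.06, 1.07, 1.08, 1.09 and 1.11. Gene 18 averaged 82.8 ± 10.5 CPM in CA1 (SD, n = 4), 90.5 ± 18.1 in CA2 (n = 3), 86.3 ± 13.6 in CA3 (n = 4) and 16.1 ± 1.55 in DG (n = 3). Gene 35 averaged 48.3 ± 1.37 CPM in DG, against 203 ± 32.7 in CA1, 225 ± 29.8 in CA2 and 216 ± 28.4 in CA3. Gene 24 averaged 3.31 ± 0.420 CPM in DG, against 18.0 ± 4.78 in CA1, 18.6 ± 2.43 in CA2 and 17.4 ± 4.09 in CA3. Gene 27 was at 35.5 to 46.6 CPM in CA1, 37.6 to 50.1 in CA2, 38.9 to 52.6 in CA3 and 6.40 to 12.9 in DG. In these 5 genes, picked as the most even, the CA means differed by less than the spread between the samples of a layer. That spread includes any difference between replicates that the layers share, so this does not show equal levels. In genes 10, 18, 27 and 35 replicate 1 held the highest value of every CA layer. Replicate 1 was also the highest DG library for genes 10, 18 and 27, at 14.7, 17.8 and 12.9 CPM, but not for gene 35. The share of all genes with replicate 1 highest in every CA layer was not computed.

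The rest of the 39 genes, most of them outside the rule for named genes, were grouped here after their values were seen, by their order among the CA means. Gene 38 rose from 69.0 to 82.8 CPM in CA1 through 91.8 to 98.5 in CA2 to 104 to 147 in CA3, without overlap, and was at 13.1 to 22.3 CPM in DG. Gene 33 was at 19.7 to 31.1 CPM in CA3, above all CA1 (13.5 to 19.6) and CA2 (11.9 to 18.4) libraries, and at 2.84 to 4.74 CPM in DG. Gene 39 was at 49.7 to 69.5 CPM in CA3 and 40.8 to 43.4 in CA1, with CA2 at 32.4 to 52.1 across both and DG at 6.96 to 11.6. These 3 genes were called lower in CA1 than in CA3, with log2 fold changes of -0.78 ± 0.13 (SE) for gene 38, -0.89 ± 0.18 for gene 33 and -0.58 ± 0.14 for gene 39. Without the block, the edgeR test called gene 38 neither in CA1vsCA2 (adjusted p 0.108) nor in CA2vsCA3 (adjusted p 0.0711).

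Gene 34 ran the other way, from 71.8 to 77.4 CPM in CA1 through 53.4 to 63.2 in CA2 to 39.3 to 54.1 in CA3, where the last 2 overlapped, with DG at 10.1 to 12.9 CPM. Gene 20 was at 41.7 to 55.4 CPM in CA1, above CA2 (30.8 to 38.2) and CA3 (22 to 38), and at 3.35 to 7.27 CPM in DG. Gene 17 was at 36.6 to 46.6 CPM in CA3, below CA1 (59.0 to 71.5) and CA2 (54.4 to 76.7), and at 6.19 to 9.23 CPM in DG. Gene 26 was at 20.9 to 29.0 CPM in CA1 and 13.8 to 16.9 in CA2, with CA3 at 13 to 21.7 across both and DG at 1.65 to 4.74. Gene 29 was at 37.4 to 48.5 CPM in CA2 against 18.8 to 32.8 in CA1, 23.2 to 29.5 in CA3 and 3.61 to 6.88 in DG. All 5 genes had at least 1 call among the pyramidal comparisons. Without the block, the edgeR test called genes 34 and 20 in CA1vsCA3 only, with adjusted p of 0.0795 and 0.255 in CA1vsCA2.

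The remaining genes, 14, 21, 22, 23, 25, 36 and 37, overlapped between at least 2 CA layers. Gene 25 was at 444 to 554 CPM in CA1, 355 to 433 in CA2, 349 to 433 in CA3 and 72.5 to 82.2 in DG. Gene 37 was at 99.3 to 115 CPM in CA1, 92.5 to 115 in CA2, 68.2 to 108 in CA3 and 12.6 to 26.6 in DG. The other five were at or below 28.3 CPM in every CA library and 0.711 to 4.34 CPM in DG. Genes 21 and 22 had the fewest DG counts, 44 each over the 4 libraries. Gene 22 was at 22.3 CPM in CA2 replicate 1 and at 7.51 to 11.3 in the other CA2 libraries.

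The limits cut through a continuum. The 3 genes nearest inside the limit of 4 times DG were genes 39, 38 and 37, with ratios of 4.08, 4.11 and 4.15, and the 3 nearest outside it had 3.95, 3.92 and 3.74. The lowest CA means nearest inside the limit of 10 CPM were 11.2, 11.3 and 11.8 CPM, in genes 21, 22 and 36, and those nearest outside were 8.86, 8.51 and 8.40 CPM. The ratios between CA means nearest inside the limit of 2 were 1.98, 1.96 and 1.90, in genes 16, 30 and 28, and those nearest outside were 2.04, 2.04 and 2.09. In their lowest CA layer, 10 of the 39 genes were below 20 CPM, 19 from 20 to below 100 and 10 at 100 or above, and 14 were below 5 CPM in DG. Genes that overlap another gene, have an antisense partner or a near-identical copy could not be recognised among the 39, and their values are uncertain for that reason.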

How the data were processed

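Per the study's methods, RNA of each laser-cut layer was made into stranded total-RNA libraries, sequenced as paired ends and aligned with STAR to the Ensembl Rnor6 genome; the counting program and its strand setting are not given in the sources used here. The authors deposited raw counts per gene for 16 libraries, which were used. Their 6 further tables hold their own DESeq2 fold changes and p-values and were not used. Members and lists were chosen with earlier results of these data known. Counts were tested with edgeR 4.0.16 (quasi-likelihood, TMM, genes with over 10 counts in sum, threshold 0.05), all 4 layers in 1 fit of 14 samples, repeated pairs summed. DESeq2 1.42.0, other scalings, filters and limits, and leaving out replicates were alternatives. The rule for named genes took the 12 largest ratios, the 3 nearest each limit and the 5 most and least even; all other genes described were chosen after their values were seen. Symbols beyond the study's 288 pairs are not analysed here. The methods name 4 rats and the labels number the libraries of every layer alike, so same-numbered libraries were taken as 1 rat. Their deviations from the layer means correlated at -0.13 to 0.68 (24 pairs, median 0.26, over 0.1 in 19), against a median of -0.09 for different numbers. Replicate 1 alone gave 0.60 to 0.68, whereas same-numbered libraries of replicates 2 to 4 gave -0.13 to 0.44. Different numbers reached 0.44 too, in CA3 replicate 2 with DG replicate 3. The deviations cancel within a layer, which lowers the correlations of different numbers where same numbers correlate. For replicates 2 to 4 the pairing thus rests on the labels. The tests reported first have no term for the rat. Counts called in a fit with that replicate block are given beside them for the comparisons between CA layers. Which rat a repeated pair belongs to is not known, so it was placed under either number. The detection floor covers counting error only, whereas the SD and SE values include the spread between samples.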

Additional observations from a re-analysis of the deposited data

Results flagged for a closer look

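In 80 groups of 4 libraries (39 genes and their sum, in CA1 and in CA3), the highest or lowest library stood apart by Dixon's 95% criterion in 7; chance alone flags about 1 group in 20. In CA1, gene 7 was low in replicate 4 at 52.1 CPM, with the others at 69.7 to 73.2. Gene 8 was high in CA1 replicate 2 at 234 CPM, with the others at 184 to 192, and gene 30 was high in the same library at 401 CPM, with the others at 325 to 337. Gene 32 was low there at 10.9 CPM, with the others at 12.5 to 12.8. In CA3, gene 24 was high in replicate 1 at 23.5 CPM, with the others at 14.6 to 16.1, and gene 33 was low in that library at 19.7 CPM, with the others at 29.5 to 31.1. Gene 29 was high in CA3 replicate 4 at 29.5 CPM, with the others at 23.2 to 23.9. CA2 and DG, with 3 samples each, were not tested in this way, so the split of genes 1 and 2 in DG is outside this criterion.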

How the results depend on the processing

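The choice of genes moved with its limits by construction: 69 genes passed at 3 times DG, 12 at 6 times, 18 with CA means within 1.5 times, 74 with no limit between CA means, and 16 with the lowest CA library at least 4 times the highest DG library. Other scalings gave 33 to 45 genes, 38 of the 39 staying under TMM and under median-of-ratios size factors, which moved the median log2 difference of all genes between CA3 and DG by 0.17. Leaving out each replicate in turn (a repeated pair as 1) gave 33 to 47 genes, fewest without the CA2 pair and most without the DG pair, and 25 of the 39 stayed in all 14 such choices. The log2 ratio of gene 2 was 7.75 without the DG pair, and that of gene 7 was 2.98 with size factors, past 1 SD from the value reported. Of 702 recomputed ratios, 700 stayed within it and 0 turned, and nothing is read from this tally. Leaving out a library of a CA layer that was not the lowest often left the ratio unchanged. The limit of 4 times DG kept every ratio far from turning. The SD was that of the gene's own samples, so variable genes stayed within it easily. Leaving out replicates gave 39 calls in each comparison with DG, 9 to 12 in CA1vsCA2, 18 to 23 in CA1vsCA3 and 11 to 13 in CA2vsCA3. The 39 genes were chosen on these contrasts and were not chosen again for each fit, so nothing is read from these calls. Depth limits the low DG values most, where 44 counts lie behind the least counted genes.

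With the rat as a replicate block, calls in CA1vsCA2 rose from 10 to 18 (repeated pairs under number 2) or 17 (under number 4). They rose to 19 with all 16 libraries, where the repeated libraries stand as separate samples. The cause was not tested. In the other 5 comparisons the block kept the number of the 39 genes called within 1.5 times, and in the comparisons between CA layers it lost no call made without it.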
